A study of Mus musculus with 12 samples.

Results

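Transcripts of 10 genes that mark dendritic cells and their subsets were followed in tumor-associated macrophages (TAMs) sorted from B16 melanoma. The genes were taken by symbol, as Clec9a, Xcr1, Batf3, Wdfy4 and Itgae of type 1 conventional dendritic cells (cDC1), Flt3 and Zbtb46 of the conventional lineage as a whole, Cd209a of monocyte-derived and cDC2-like cells, Ccr7 of mature dendritic cells and Siglech of plasmacytoid dendritic cells. They are 10 of the 55401 genes listed in each of the study's 2 count tables, and each symbol stood on a single row. All 10 had enough counts to be tested in both comparisons.

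The first table held 3 WT samples, from AMPKfl/fl mice, and 3 AMPK-KO samples. Titles of the AMPK-KO samples name AMPKfl/flLyz2cre/cre mice, that is with the Cre on both copies of the lysozyme 2 locus of myeloid cells. The paper writes Lyz2cre without the number of copies. As titled, both groups had the floxed alleles. All were taken on day 15 after B16-F10 melanoma cells were implanted under the skin of mice that were 5 weeks old and on a C57BL/6 background. The second table held 3 early-stage samples from day 8 tumors and 3 late-stage samples from day 15 tumors, all labelled with the genotype WT, none with a treatment. TAMs were sorted as CD45+CD11b+Ly6C-Ly6G-F4/80+ cells. No protein of this gate is encoded by a marker gene followed here. Cells that are CD11b+F4/80+ and have dendritic cell genes can enter the gate. Whether cDC1 passed it was not tested, nor which sorted cells carried the cDC1 transcripts. As the methods write it, this gate removes Ly6C+ monocytes, Ly6G+ neutrophils and CD45- cells such as tumor and endothelial cells, whereas captions of the supplement write the Ly6C and Ly6G signs differently, so which gate these libraries had is uncertain. No cells were separated further, and bulk RNA-seq was performed.

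Conventional dendritic cells take up dead tumor cells, carry the antigen to lymph nodes and prime T cells. cDC1 depend on the transcription factors BATF3 and IRF8 and are known for presenting tumor antigen to CD8+ T cells. cDC2 depend on IRF4 and mainly serve CD4+ T cells, plasmacytoid dendritic cells secrete type I interferon, and inflamed tissue also holds cells with dendritic cell markers that arise from monocytes. In bulk RNA, fewer cells of a type and less RNA per cell cannot be told apart, so each value below is a level over the whole sorted population.

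Libraries held 71019494 to 84470374 counts, and 17532 genes were tested in the first table and 17630 in the second. Levels are given as CPM, counts per 1000000 counts of a library whose size was scaled by TMM. A gene was called changed when the quasi-likelihood test of edgeR gave a Benjamini-Hochberg adjusted p under 0.05 over all genes tested. Errors of levels are SD over n = 3 samples, errors of log2 fold changes are SE, and the labels do not say whether the 3 samples of a group came from separate mice, so the spread may be technical. Prkaa1, the AMPK gene targeted in myeloid cells of AMPK-KO mice, had 4535 to 5165 counts in WT and 3285 to 3467 in AMPK-KO samples (−0.60 ± 0.07 on the log2 scale, adjusted p = 2.3e-04). Lyz2, the locus of the Cre, had 671 to 975 counts in WT and 676 to 1088 in AMPK-KO samples, against 204851 to 249165 in early-stage and 88212 to 93224 in late-stage samples. This was 10.7 ± 2.46 CPM in WT and 11.2 ± 2.16 CPM in AMPK-KO samples, while the other table, scaled separately, had 2790 ± 279 and 1107 ± 19.1 CPM. WT libraries were thus as low in Lyz2 as the libraries of mice with the Cre in this locus, which puts it in doubt that the mice labelled AMPKfl/fl lacked the Cre, or that Lyz2 was counted alike in both tables. Every value of AMPK-KO against WT rests on these labels, and the cause was not tested. Macrophage genes were abundant in all 12 libraries, with Adgre1, the gene of F4/80, at 894 ± 33.6 CPM in WT and 865 ± 50.6 CPM in early-stage samples. The summed counts of 4 Y-linked genes were 9229 to 11360 in WT, 11299 to 12183 in AMPK-KO, 3435 to 4035 in early-stage and 0 to 4 in late-stage samples. The methods name female mice, which only the late-stage counts fit, and the sex of the cells changed with the stage and cannot be told apart from it.

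The windows around the RefSeq start sites of the cDC1 genes that rose most in AMPK-KO TAMs are shown because these genes, Clec9a, Xcr1 and Batf3, each passed a log2 fold change of 1, and those of Zbtb46 and Cd209a because they held a match. Each runs from 250 bases before to 50 bases after the start on GRCm38.p6, is written 5′ to 3′ on the strand of the gene, and has matches in capitals. RefSeq windows were matched for 8 of the 10 genes, all but Ccr7 and Itgae.
Clec9a, chr6:129408612-129408911, plus strand: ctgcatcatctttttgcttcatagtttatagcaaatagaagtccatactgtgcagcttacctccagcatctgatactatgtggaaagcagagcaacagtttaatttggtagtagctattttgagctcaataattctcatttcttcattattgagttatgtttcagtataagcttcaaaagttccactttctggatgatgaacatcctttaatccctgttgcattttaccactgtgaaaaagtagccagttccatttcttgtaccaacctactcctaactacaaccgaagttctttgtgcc
Xcr1, chr9:123861980-123862279, minus strand: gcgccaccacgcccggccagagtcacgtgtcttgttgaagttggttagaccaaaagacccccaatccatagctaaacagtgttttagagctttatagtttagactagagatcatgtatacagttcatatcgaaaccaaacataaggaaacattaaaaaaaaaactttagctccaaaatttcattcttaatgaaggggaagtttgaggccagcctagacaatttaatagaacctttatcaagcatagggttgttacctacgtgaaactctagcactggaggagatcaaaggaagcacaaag
Batf3, chr1:191098164-191098463, plus strand: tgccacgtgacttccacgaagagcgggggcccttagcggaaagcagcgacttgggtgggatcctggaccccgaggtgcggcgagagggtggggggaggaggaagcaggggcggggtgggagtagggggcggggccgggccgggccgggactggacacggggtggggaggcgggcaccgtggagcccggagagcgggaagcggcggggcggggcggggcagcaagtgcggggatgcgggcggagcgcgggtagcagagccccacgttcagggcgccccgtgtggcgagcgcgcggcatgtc
Zbtb46, chr2:181424339-181424638, minus strand: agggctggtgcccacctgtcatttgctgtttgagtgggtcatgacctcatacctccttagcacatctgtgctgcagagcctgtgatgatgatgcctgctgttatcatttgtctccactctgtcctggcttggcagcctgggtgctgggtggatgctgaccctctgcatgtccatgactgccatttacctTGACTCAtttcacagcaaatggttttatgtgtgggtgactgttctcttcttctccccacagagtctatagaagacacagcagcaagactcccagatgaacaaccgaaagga
Cd209a, chr8:3748935-3749234, minus strand: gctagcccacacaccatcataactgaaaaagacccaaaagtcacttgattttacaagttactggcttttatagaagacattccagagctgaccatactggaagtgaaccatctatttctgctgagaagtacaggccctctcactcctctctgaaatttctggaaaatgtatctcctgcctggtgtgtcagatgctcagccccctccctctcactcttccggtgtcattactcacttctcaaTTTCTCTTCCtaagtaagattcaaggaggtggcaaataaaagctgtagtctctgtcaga

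AP-1, interferon response and ETS-IRF motifs were searched on both strands. The AP-1 motif TGANTCA lay in 7.81% of 32851 RefSeq windows of this length, the interferon response motif (GAAA, any 2 bases, GAAA) in 3.44% and the ETS-IRF motif (GGAA, any 2 bases, GAAA) in 2.72%. The window of Zbtb46 held the AP-1 motif, as TGACTCA from position −61 to the start, and that of Cd209a held the ETS-IRF motif on the other strand, as TTTCTCTTCC from position −9. Neither the 3 windows of Clec9a, Xcr1 and Batf3 nor those of Flt3, Wdfy4 and Siglech held these letters, which describes these windows and nothing beyond them. The starts of Zbtb46, Batf3 and Wdfy4 used by RefSeq lie inside the longer gene models of the GENCODE annotation, and that of Siglech does by a few bases.

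The dendritic cell markers were spread over a wide range of levels, which are compared between genes only per length, as CPM per kb of exon. In WT TAMs Ccr7 had 18.5, Wdfy4 17.1, Cd209a 10.9 and Batf3 9.32 CPM per kb. Xcr1 at 2, Itgae at 1.81, Flt3 at 1.76, Clec9a at 1.22 and Zbtb46 at 0.797 CPM per kb were lower, and Siglech was lowest at 0.136. Adgre1 had 276 CPM per kb in the same samples, so each of the markers was far below the gene of the sorted surface protein. Early-stage samples put Ccr7 at 20.6, Wdfy4 at 15.3, Batf3 at 9.91 and Cd209a at 9.45 CPM per kb, and late-stage samples gave 26.8, 21.1, 15.5 and 4.29.

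AMPK-KO was first compared with WT, which asks how the transcripts of sorted TAMs differ when Prkaa1 is targeted in myeloid cells. Of the 10 markers, 9 rose and none fell, where 11.3% of all genes tested were called higher and 9.78% lower. The 10 markers and the lists below were chosen with earlier results of these data known. The shares over all genes therefore stand beside their counts as a description and test nothing. The cDC1 genes Clec9a, Batf3 and Xcr1 moved furthest, each to more than 2-fold of the WT level, and these 3 passed a log2 fold change of 1, which 2.05% of all genes did. Samples of the groups did not overlap for 8 markers, each higher in AMPK-KO, against 18.8% of all genes that were higher without overlap and 18.4% lower. The median log2 fold change of the 10 markers was 0.44, beside −0.004 over all genes tested. Without WT replicate 3, 5 of the markers were called, and the number over all genes tested went from 3693 to 2414.

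**Figure D1:**
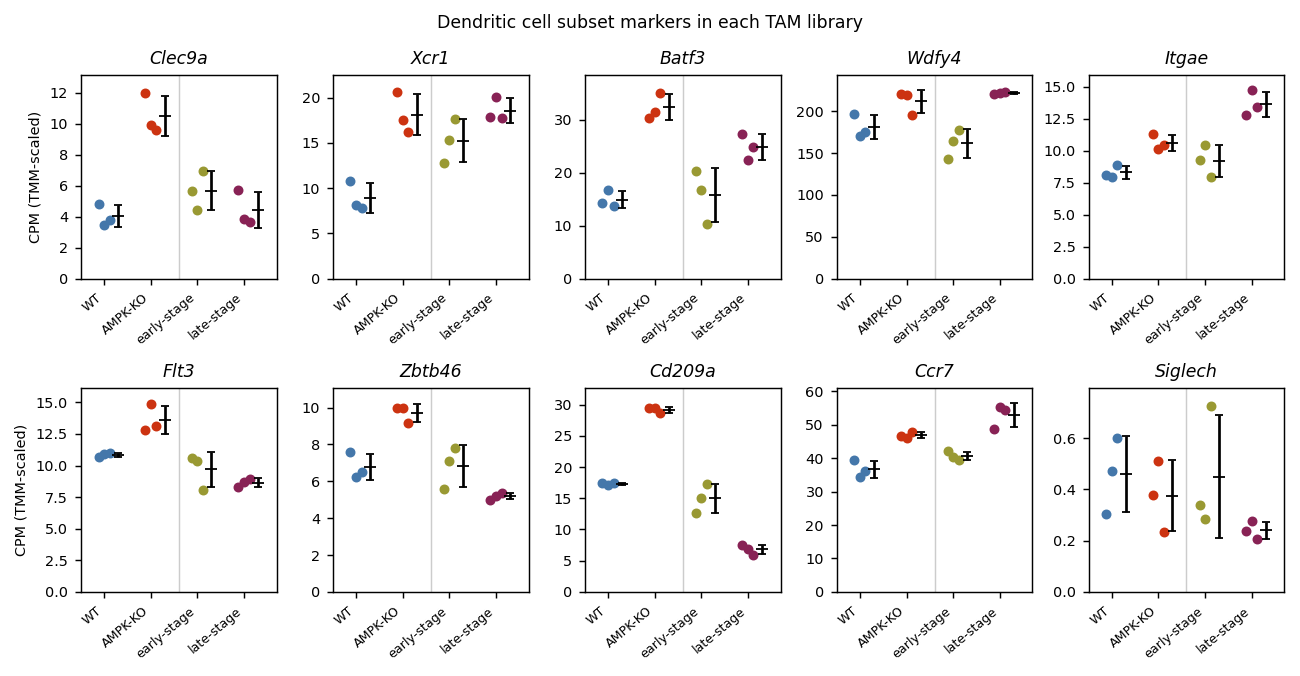
Level of each of the 10 dendritic cell markers in every TAM library, as TMM-scaled CPM on the y axis, with 1 point a library and, beside the points, the mean and SD of each group (n = 3). Clec9a lay at 3.49 to 4.83 CPM in WT and 9.57 to 12 in AMPK-KO samples, and Cd209a at 12.7 to 17.3 in early-stage and 5.97 to 7.5 in late-stage samples.

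Clec9a (ENSMUSG00000046080.17, GRCm38 chromosome 6, 129408862 to 129424763, plus strand) encodes DNGR-1, the cDC1 receptor for actin exposed on dead cells. It had 348, 252 and 308 counts in WT samples 1 to 3 and 886, 798 and 773 in AMPK-KO samples 1 to 3. In CPM these were 4.83, 3.49 and 3.78 against 12, 9.95 and 9.57. Every AMPK-KO sample lay above every WT sample. The mean rose from 4.03 ± 0.706 to 10.5 ± 1.31 CPM, 2.61-fold, with a log2 fold change of 1.38 ± 0.15 (95% interval 1.04 to 1.72, adjusted p = 1.3e-04). Its gene model overlaps Clec1b on the same strand, and how reads in shared stretches were counted is not given in the sources used here.

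Xcr1 (ENSMUSG00000060509.5) encodes the receptor through which cDC1 follow the chemokine XCL1 of NK cells and CD8+ T cells. WT samples had 10.8, 8.12 and 7.84 CPM and AMPK-KO samples 20.6, 17.5 and 16.2. Sample 1 was the highest of each group, and the groups were well apart. On average it rose from 8.93 ± 1.65 to 18.1 ± 2.26 CPM, with a log2 fold change of 1.02 ± 0.14 (95% interval 0.70 to 1.34, adjusted p = 6.2e-04).

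Batf3 (ENSMUSG00000026630.9, chromosome 1, 191097847 to 191108945, plus strand) encodes the AP-1 family factor that cDC1 need to develop. Its level was 14.3, 16.7 and 13.7 CPM in WT and 30.4, 31.5 and 35.1 in AMPK-KO samples. No WT sample came near the AMPK-KO samples. The mean rose from 14.9 ± 1.62 to 32.3 ± 2.49 CPM, 2.17-fold (log2 fold change 1.12 ± 0.10, 95% interval 0.90 to 1.34, adjusted p = 2.7e-05). Its partner Irf8 rose by 0.40 ± 0.04 on the log2 scale (adjusted p = 9.5e-05), and the ratio of Batf3 to Irf8 counts was 0.0489, 0.0551 and 0.0452 in WT and 0.0782, 0.0781 and 0.0895 in AMPK-KO samples.

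The other cDC1 genes moved little. Wdfy4 (ENSMUSG00000051506.17, chromosome 14, 32959547 to 33185508, minus strand) encodes a BEACH domain protein that cDC1 need to cross-present antigen bound to cells. It was at 197, 170 and 175 CPM in WT and 221, 219 and 196 in AMPK-KO samples, so that the lowest AMPK-KO sample lay just under the highest WT sample. Its mean went up from 180 ± 14.5 to 212 ± 13.9 CPM (0.23 ± 0.07 on the log2 scale, adjusted p = 0.0357). That call was lost in 4 of the 6 fits that left out a library, with an adjusted p of 0.107 without WT replicate 2, 0.159 without WT replicate 3, 0.134 without AMPK-KO replicate 1 and 0.145 without AMPK-KO replicate 2.

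Itgae (ENSMUSG00000005947.11, chromosome 11, 73090583 to 73147446, plus strand) encodes CD103, the integrin αE chain that binds E-cadherin and marks tissue cDC1 and resident T cells. Its levels were 8.09, 7.94 and 8.84 CPM in WT and 11.3, 10.1 and 10.4 in AMPK-KO samples. The groups did not overlap. The mean rose from 8.29 ± 0.485 to 10.6 ± 0.626 CPM (0.36 ± 0.11 on the log2 scale, adjusted p = 0.0380), and this was lost whichever library was left out, with an adjusted p of 0.0670 (without WT replicate 3) to 0.131 (without AMPK-KO replicate 1). Haspin overlaps Itgae on the other strand, and Lrrc18 overlaps Wdfy4 likewise, so without a stated strand setting their reads cannot be told apart.

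Flt3 (ENSMUSG00000042817.15, chromosome 5, 147330741 to 147400489, minus strand) is the receptor for the growth factor that conventional and plasmacytoid dendritic cells and their progenitors depend on. WT samples had 10.7, 10.9 and 11 CPM and AMPK-KO samples 12.8, 14.9 and 13.1. The WT samples were nearly equal and all AMPK-KO samples lay above them. On average Flt3 rose from 10.9 ± 0.118 to 13.6 ± 1.13 CPM (0.33 ± 0.10 on the log2 scale, adjusted p = 0.0393). This call too was lost whichever library was left out, with an adjusted p of 0.0530 (without AMPK-KO replicate 1) to 0.158 (without AMPK-KO replicate 2).

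Zbtb46 (ENSMUSG00000027583.13, chromosome 2, 181387762 to 181459426, minus strand) encodes the transcription factor that separates conventional dendritic cells from other myeloid cells. It was measured at 7.57, 6.26 and 6.51 CPM in WT and 9.98, 10 and 9.17 in AMPK-KO samples, without overlap. From 6.78 ± 0.693 it rose to 9.73 ± 0.480 CPM, a log2 fold change of 0.52 ± 0.12 (95% interval 0.26 to 0.78, adjusted p = 0.0100). Without WT replicate 3 the adjusted p was 0.0545.

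Cd209a (ENSMUSG00000031494.7, chromosome 8, 3743397 to 3748984, minus strand) encodes a homolog of the C-type lectin DC-SIGN, found on monocyte-derived dendritic cells and a share of cDC2. It had 17.4, 17.1 and 17.4 CPM in WT and 29.5, 29.4 and 28.6 in AMPK-KO samples. The samples within each group were nearly identical and the groups far apart. Its mean rose from 17.3 ± 0.176 to 29.2 ± 0.476 CPM, 1.69-fold (log2 fold change 0.76 ± 0.07, 95% interval 0.59 to 0.92, adjusted p = 4.5e-05). Cd209a belongs to a family of close paralogs, and how shared reads were counted is not given in the sources used here.

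Ccr7 (ENSMUSG00000037944.8, chromosome 11, 99144196 to 99155077, minus strand) encodes the receptor that leads mature dendritic cells to lymph nodes along CCL19 and CCL21, and naive T cells carry it as well. Levels were 39.5, 34.5 and 36.1 CPM in WT and 46.7, 46.1 and 47.9 in AMPK-KO samples. All AMPK-KO samples were higher than all WT samples. Ccr7 thus rose from 36.7 ± 2.55 to 46.9 ± 0.902 CPM (0.35 ± 0.07 on the log2 scale, 95% interval 0.21 to 0.50, adjusted p = 0.00391).

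Siglech (ENSMUSG00000051504.18, chromosome 7, 55768178 to 55778925, plus strand), a sialic acid binding lectin of plasmacytoid dendritic cells, was the marker that was not called. It had 22, 34 and 49 counts in WT and 28, 41 and 19 in AMPK-KO samples. The groups overlapped throughout. Its log2 fold change was −0.29 ± 0.52 with a 95% interval of −1.45 to 0.87 (adjusted p = 0.755), a range that holds both rises and falls.

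**Figure D2:**
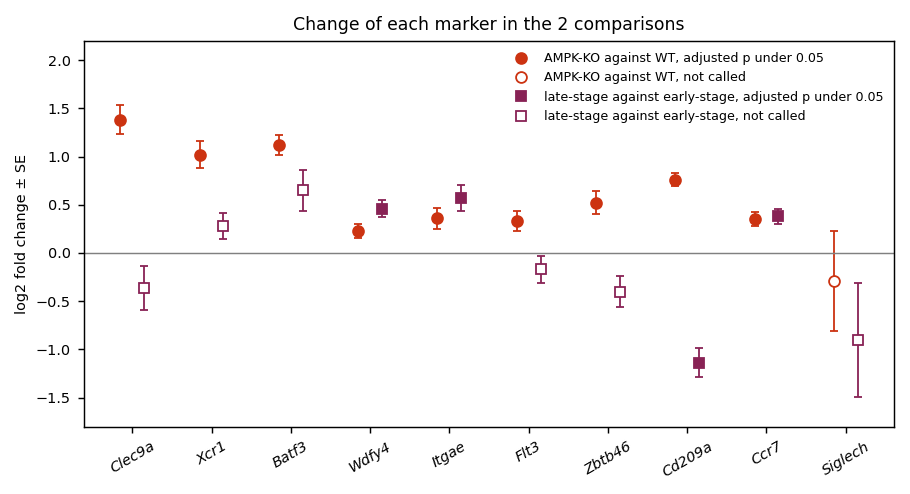
Log2 fold change (y axis) of each marker (x axis) in AMPK-KO against WT (circles) and in late-stage against early-stage TAMs (squares), with bars for the SE and filled symbols for an adjusted p under 0.05. In AMPK-KO TAMs 9 of 10 markers lay above 0 and were called, whereas in late-stage TAMs 3 were called higher and 1, Cd209a at −1.14, lower.

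Ratios of raw counts within a library do not depend on scaling. The ratio of Clec9a to Xcr1 was higher in AMPK-KO samples, at 0.583, 0.568 and 0.591 against 0.446, 0.430 and 0.482 in WT samples. Relative to Flt3, the ratio of Clec9a was 0.450, 0.321 and 0.345 in WT and 0.936, 0.667 and 0.729 in AMPK-KO samples. The ratio of Cd209a to Clec9a was lower in AMPK-KO samples, at 2.46, 2.95 and 2.99 against 3.59, 4.89 and 4.6. None of these ratios overlapped between WT and AMPK-KO samples, and they were described without a test. The markers that rose did not keep to a common proportion.

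The markers were next set beside 70 other genes of dendritic cells, taken from 6 lists, of which 67 could be tested. AMPK-KO TAMs had 32 of them higher and 10 lower, with a median log2 fold change of 0.26. Over all genes tested 11.3% were called higher and 9.78% lower, with a median of −0.004. The same shares apply beside the counts of each list below in this comparison. Of 13 cDC1 genes 7 rose and 1 fell (median 0.29). Naaa, a lysosomal amidase, rose by 0.82 ± 0.05 on the log2 scale (adjusted p = 1.0e-06). Tlr11, a sensor of profilin, changed by 1.56 ± 0.25 on the log2 scale (adjusted p = 0.00154). Ifi205, an interferon-induced gene, rose by 0.53 ± 0.05 (adjusted p = 7.9e-05), and Id2, a factor of cDC1 development named after its values were seen, fell by 0.33 (adjusted p = 0.00805).

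Of 11 cDC2 genes 6 rose and 2 fell (median 0.39). Itgax, the gene of CD11c, rose from 119 ± 4.76 to 254 ± 14 CPM (1.10 ± 0.06 on the log2 scale, adjusted p = 7.3e-07). Mgl2, the lectin CD301b, rose by 0.93 ± 0.06 on the log2 scale (adjusted p = 4.1e-06), whereas the related lectin gene Clec10a fell by 0.40 (adjusted p = 0.00150). Irf4, the factor of cDC2 development, rose by 0.62 (adjusted p = 0.00145) and Tbx21, the gene of T-bet, by 1.32 (adjusted p = 6.9e-04). Esam, an adhesion molecule that endothelial cells share, fell by 2.38 (adjusted p = 0.0148). T-bet is also a factor of NK cells and T cells, and CD11c is also found on NK cells and macrophages.

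Of 12 genes of mature dendritic cells 4 rose and 1 fell (median 0.23). The cytokine gene Il12b rose by 0.85 on the log2 scale (adjusted p = 8.8e-04) and Socs2 by 0.77 (adjusted p = 0.00218). Relb rose by 0.23 (adjusted p = 0.0137, 0.0732 without WT replicate 3). Cd200 rose by 0.42 (adjusted p = 0.0281), a call not followed in the fits that left out a library. Fscn1, the actin bundling protein of mature dendritic cells, fell by 0.50 (adjusted p = 2.0e-04), opposite in direction to Ccr7. Among 9 of 10 plasmacytoid genes tested, 3 rose and 3 fell (median −0.15). Runx2 had a log2 fold change of 0.76, Cox6a2 of 0.81 and Pacsin1 of 0.65, while Ly6d fell by 4.22, Spib by 1.59 and Bst2 by 0.45. Ly6d and Spib are also genes of B cells, whose markers fell as given below.

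Of 10 genes of the progenitor list 7 rose and 1, Sox4 (−0.49 on the log2 scale, adjusted p = 0.0158), fell (median 0.52). Cd34 and Zeb2 were not called (adjusted p = 0.919 and 0.185). Genes of this list are not particular to progenitors, so its median does not speak for progenitor cells. Traf1 rose by 0.76 (adjusted p = 1.3e-05), Csf2rb, the shared chain of the GM-CSF receptor, by 0.64 (adjusted p = 2.4e-05), Kmo by 0.92 (adjusted p = 1.0e-04) and Kit by 0.96 (adjusted p = 1.7e-04). Of 16 partners of the 10 markers, 14 could be tested, 7 rose and 2 fell (median 0.19). Itgb7, the β7 chain that pairs with CD103, rose from 77.5 ± 2.51 to 141 ± 4.57 CPM (0.86 ± 0.05 on the log2 scale, adjusted p = 2.1e-06), and Cdh1, the gene of E-cadherin that CD103 binds, rose by 1.07 ± 0.12 (adjusted p = 1.6e-04). Xcl1, the ligand of XCR1, changed by 0.96 ± 0.26 on the log2 scale (adjusted p = 0.0242). Flt3l, the ligand of FLT3, had 12.6 ± 0.464 and 14.4 ± 1.48 CPM and was not called (adjusted p = 0.215). Batf2, a relative of BATF3, rose by 1.05 (adjusted p = 3.4e-06), while the AP-1 gene Jun fell by 0.37 (adjusted p = 9.1e-05) and the chaperone gene Hspa5 by 0.59 (adjusted p = 2.3e-06). The CCR7 ligand genes Ccl19 and Ccl21a had at most 8 counts in any WT or AMPK-KO library and were not tested.

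**Figure D3:**
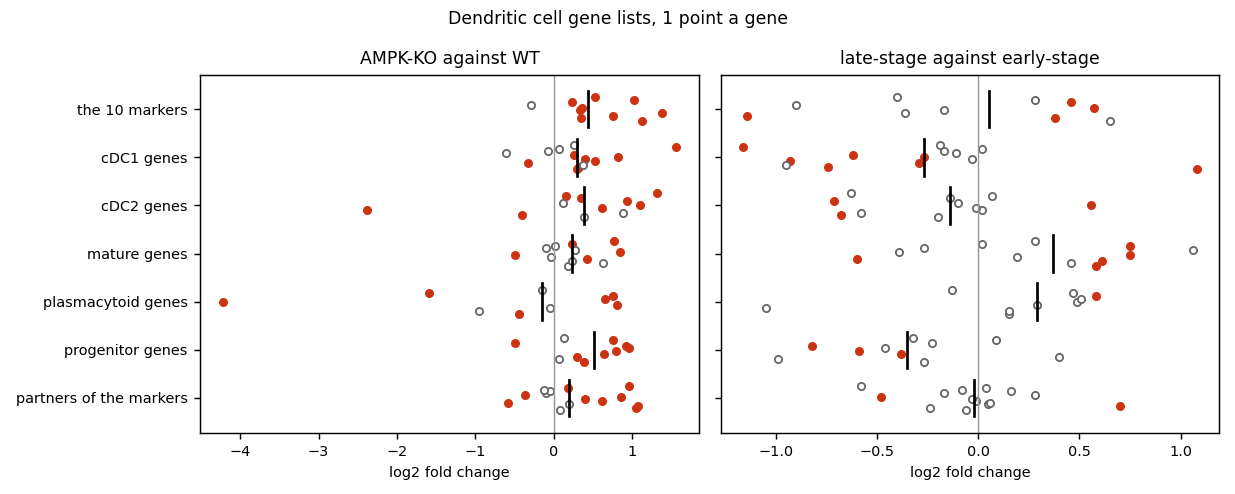
Log2 fold change (x axis) of each tested gene of the 10 markers and of 6 other dendritic cell lists (y axis), filled for an adjusted p under 0.05, with a bar at the median of each list. In AMPK-KO TAMs the medians ran from −0.15 (plasmacytoid list) to 0.52 (progenitor list). In late-stage TAMs they ran from −0.35 (progenitor list) to 0.37 (mature list). The x axes of the panels differ.

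Markers of other cells also changed in AMPK-KO TAMs, some lists rising and others falling. Of 8 monocyte markers 6 rose, from a summed 644 to 678 CPM in WT to 1068 to 1081 in AMPK-KO samples, with Ccr2 at a log2 fold change of 0.77 and Plac8 at 0.78. T cell markers rose in 9 of 10 genes (summed 120 to 132 against 209 to 212 CPM, Cd8a at 1.40 and Lck at 0.53), and NK cell markers in 7 of 7 (33.3 to 37.2 against 81.7 to 84.9 CPM, Prf1 at 1.37 and Gzma at 1.09). B cell markers fell in 6 of 7 genes (35.6 to 38.1 against 20.2 to 22.5 CPM), with Cd79a down from 5.13 ± 0.610 to 0.106 ± 0.0155 CPM but Cd79b at a log2 fold change of 0.39. No marker of these 4 lists was at 0 in a whole group.

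Neutrophil markers summed to 95.1 to 102 CPM in WT and 158 to 161 in AMPK-KO samples, 3 of 5 tested genes rising (Csf3r by 0.68 and S100a9 by 1.82 on the log2 scale, and S100a8), with Ly6g and Ngp at 0. Cd200r3 was the only one of 2 tested basophil or mast cell markers to rise (log2 fold change 1.91), with Gata2 at 0.05. Among macrophage markers 2 of 12 rose (Itgam and Csf1r) and 3 fell (Apoe by 0.47, Cd68 and Mrc1), C1qb was at −0.16 and not called, their sum being 18548 to 20659 CPM in WT and 17079 to 17715 in AMPK-KO samples. Markers of B16 melanoma fell in 6 of 7 genes (998 to 999 against 676 to 716 CPM, Dct and Tyrp1 the most abundant), and of 6 endothelial markers Pecam1 and Kdr rose and Cdh5 fell (52.9 to 59.8 against 117 to 121 CPM). The part of these cells in the change of the dendritic cell markers was not tested.

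Counts of 2 markers were also set beside those of other cells. Itgae, which resident T cells share, was lower relative to Cd8a in AMPK-KO samples, going from 0.514, 0.439 and 0.463 in WT to 0.241, 0.215 and 0.230 in AMPK-KO samples, and relative to Itgb7 from 0.108, 0.102 and 0.111 to 0.0834, 0.0715 and 0.0719. Of the 10 T cell markers, Cd8a rose most (log2 fold change 1.40) and Cd4 least (0.26, not called). The ratio to Cd8a thus depends on the T cell gene chosen and does not speak for T cell genes as a whole. The ratio of Cd209a to the monocyte gene Ccr2 was 0.0757, 0.0727 and 0.0702 in WT and 0.0695, 0.0721 and 0.0746 in AMPK-KO samples, overlapping. The pairing with Ccr2 was chosen after the values were seen, and nothing is drawn from it. Cd8a is itself a gene of cDC1 in lymphoid tissue as well as of T cells.

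**Figure D4:**
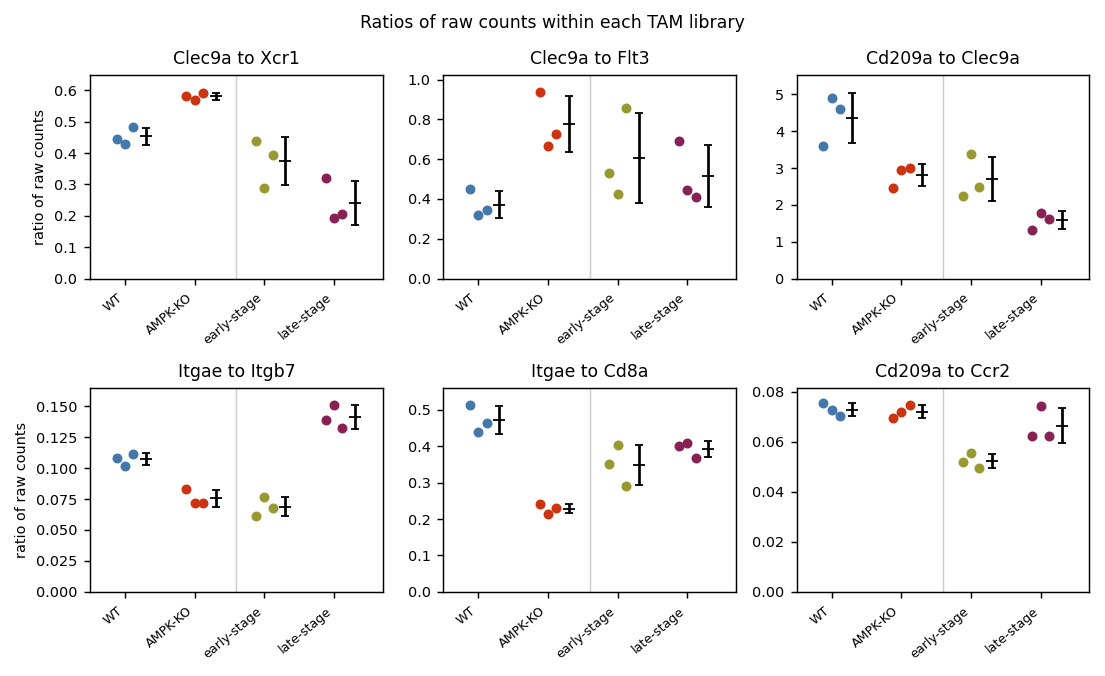
Ratios of raw counts of 2 genes (y axis) in each TAM library, with 1 point a library and the mean and SD of each group beside the points (n = 3). The ratio of Clec9a to Xcr1 lay at 0.430 to 0.482 in WT and 0.568 to 0.591 in AMPK-KO samples, whereas that of Cd209a to Ccr2 overlapped between these groups.

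Late-stage was then compared with early-stage TAMs, which asks what differs between TAMs of day 15 and day 8 tumors. The sex of the cells differed with the stage and cannot be told apart from it, as given above. Of the 10 markers, Ccr7, Itgae and Wdfy4 rose, where 4.31% of all genes tested were called higher, and Cd209a fell, where 4.88% were called lower. The markers thus did not move as a block, and their median log2 fold change was 0.06, beside 0.003 over all genes. Cd209a was also the marker that passed a log2 fold change of −1, as 1.26% of all genes did. Groups did not overlap for 5 markers that were higher and 3 that were lower in late-stage samples, against 15.6% of all genes in each direction, and Clec9a and Flt3 overlapped. The number of markers called was 2 without early-stage replicate 2, 1 without late-stage replicate 2 or 3, and 6 without early-stage replicate 1. Over all genes these fits called 680, 653, 682 and 2835, beside 1619 with all libraries.

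Cd209a moved furthest. It had 12.7, 15 and 17.3 CPM in early-stage and 7.5, 6.92 and 5.97 in late-stage samples. Early-stage samples were spread more widely, yet each lay above all late-stage samples. The mean fell from 15 ± 2.29 to 6.8 ± 0.772 CPM, 2.2-fold, with a log2 fold change of −1.14 ± 0.15 (95% interval −1.47 to −0.80, adjusted p = 0.00151). It was called lower in all 13 alternatives tried, with log2 fold changes of −1.24 to −1.02. Monocyte markers fell in 5 of 8 genes over the same comparison (summed 801 to 835 against 487 to 536 CPM), with Ccr2 at a log2 fold change of −1.48, Nr4a1 at −0.29 and not called, and Spn alone rising. The ratio of Cd209a to Ccr2 counts was 0.0519, 0.0554 and 0.0496 in early-stage and 0.0622, 0.0744 and 0.0625 in late-stage samples, higher in late-stage samples without overlap. The part of monocytes in its change was not tested.

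Wdfy4 rose from 143, 164 and 178 CPM in early-stage to 221, 222 and 223 CPM in late-stage samples. The late-stage samples were almost equal and lay above the early-stage ones. Its log2 fold change was 0.46 ± 0.09 (95% interval 0.27 to 0.65, adjusted p = 0.00940). The adjusted p was 0.0570 without early-stage replicate 2, 0.0557 without late-stage replicate 2 and 0.0552 without late-stage replicate 3. Ccr7 rose from 42, 40.3 and 39.6 CPM to 48.8, 55.4 and 54.5 CPM, without overlap (log2 fold change 0.38 ± 0.08, 95% interval 0.20 to 0.56, adjusted p = 0.0199). It was not called without early-stage replicate 2 (adjusted p = 0.0946), late-stage replicate 2 (0.115) or late-stage replicate 3 (0.106).

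Itgae rose from 9.27, 10.4 and 7.92 CPM to 12.8, 14.7 and 13.4 CPM in late-stage samples, all of which lay above the early-stage ones. Its log2 fold change was 0.57 ± 0.13 (95% interval 0.27 to 0.86, adjusted p = 0.0282), and the call was lost without late-stage replicate 1 (adjusted p = 0.0664), 2 (0.130) or 3 (0.0981). The partner chain Itgb7 fell by 0.48 on the log2 scale (adjusted p = 0.0148, but 0.0547 to 0.0808 without early-stage replicate 2 or any of the late-stage replicates), so that the ratio of Itgae to Itgb7 went from 0.0616, 0.0768 and 0.0676 to 0.139, 0.151 and 0.132. T cell markers rose in 4 of 10 genes (summed 184 to 198 against 243 to 279 CPM), with Cd8a at a log2 fold change of 0.39. Itgae to Cd8a ratios overlapped, at 0.351, 0.404 and 0.292 in early-stage and 0.402, 0.408 and 0.369 in late-stage samples. What T cells add to the rise of Itgae and Ccr7 was not tested.

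Batf3 was not called, although its samples did not overlap. Early-stage samples had 20.4, 16.8 and 10.3 CPM and late-stage samples 27.3, 22.4 and 24.8. The early-stage samples were widely spread, and the log2 fold change was 0.65 ± 0.21 (95% interval 0.18 to 1.12, adjusted p = 0.0879). DESeq2 called it (adjusted p = 0.00869), as did edgeR without early-stage replicate 1 (log2 fold change 0.88, adjusted p = 0.0188). Irf8 had 349 ± 27.4 and 341 ± 3.02 CPM (adjusted p = 0.826).

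Xcr1 had 12.8, 15.3 and 17.6 CPM in early-stage and 17.9, 20.1 and 17.7 in late-stage samples, a log2 fold change of 0.28 ± 0.13 (95% interval −0.01 to 0.57, adjusted p = 0.229). Clec9a had 5.63, 4.45 and 6.94 against 5.74, 3.86 and 3.66 CPM, which overlapped (log2 fold change −0.36 ± 0.23, 95% interval −0.87 to 0.15, adjusted p = 0.375). The 2 cDC1 receptors thus had estimates of opposite sign, neither past the threshold. Their ratio overlapped as well, at 0.438, 0.290 and 0.393 in early-stage and 0.320, 0.192 and 0.207 in late-stage samples. For Flt3 the levels were 10.6, 10.4 and 8.08 against 8.28, 8.69 and 8.96 CPM, overlapping (log2 fold change −0.17 ± 0.14, 95% interval −0.48 to 0.14, adjusted p = 0.511).

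Zbtb46 stood at 5.56, 7.13 and 7.82 CPM in early-stage and 5.01, 5.21 and 5.36 CPM in late-stage samples, lower without overlap. Its log2 fold change of −0.40 ± 0.16 was not called (95% interval −0.76 to −0.03, adjusted p = 0.166) but was without early-stage replicate 1 (−0.52, adjusted p = 0.0433). Siglech had 28, 22 and 60 counts in early-stage and 20, 22 and 17 in late-stage samples. Although the CPM values did not overlap, most of the difference lay in 1 early-stage sample, and the log2 fold change was −0.90 ± 0.59 (95% interval −2.21 to 0.41, adjusted p = 0.386).

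Among the 67 other dendritic cell genes tested, 8 rose and 13 fell in late-stage TAMs (median log2 fold change −0.10). Over all genes tested 4.31% were called higher and 4.88% lower, with a median of 0.003, and these shares apply beside each list below. Of 13 cDC1 genes 6 fell and 1 rose (median −0.27). Ifi205 fell by 0.93 (adjusted p = 1.4e-04), Nfil3, a factor of cDC1 development, by 0.62 (adjusted p = 0.00240) and Tlr11 by 1.16 (adjusted p = 0.00970, 0.0576 without early-stage replicate 2 and 0.0552 without late-stage replicate 3). The adhesion molecule gene Cadm1 rose from 116 ± 11.9 to 246 ± 5.02 CPM (1.08 ± 0.08 on the log2 scale, adjusted p = 6.9e-05). Of 11 cDC2 genes Itgax rose by 0.56 (adjusted p = 1.0e-03), while Clec10a fell by 0.68 (adjusted p = 0.00274) and Mgl2 by 0.71 (adjusted p = 0.0269, but 0.126 without early-stage replicate 2, 0.118 without late-stage replicate 2 and 0.106 without late-stage replicate 3).

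Of 12 mature dendritic cell genes 4 rose and 1 fell (median 0.37), Ccr7 rising with them. Fscn1 rose from 103 ± 12.8 to 173 ± 24.2 CPM (0.75 ± 0.12 on the log2 scale, adjusted p = 0.00444) and the chemokine gene Ccl22 from 49.6 ± 0.967 to 75.6 ± 8.31 CPM (0.61 ± 0.09, adjusted p = 0.00319). Cacnb3 rose by 0.58 (adjusted p = 0.0166) and Nudt17 by 0.75 (adjusted p = 0.0420), and Cd200 fell by 0.60 (adjusted p = 0.0166). The call of Nudt17 was not followed in the fits that left out a library. Of 10 genes of the progenitor list none rose, and the median was −0.35. Csf2rb fell by 0.38 (adjusted p = 0.0120), Dpp4 by 0.59 (adjusted p = 0.0296) and Kmo by 0.82 (adjusted p = 0.0187). Runx2 was the plasmacytoid gene that rose (0.58, adjusted p = 0.0112), and of the partners Cdh1 rose by 0.70 (adjusted p = 0.0203). Without late-stage replicate 3 the adjusted p was 0.0712 for Cacnb3, 0.0810 for Cd200, 0.0832 for Csf2rb, 0.124 for Dpp4, 0.0879 for Kmo, 0.0561 for Runx2 and 0.0692 for Cdh1. These calls were also lost without late-stage replicate 1 (Cacnb3, Cd200, Dpp4, Kmo, Runx2 and Cdh1), late-stage replicate 2 (Cacnb3, Csf2rb, Dpp4, Kmo and Cdh1) or early-stage replicate 2 (Cacnb3, Cd200, Csf2rb, Dpp4 and Kmo), and that of Dpp4 without early-stage replicate 3, with an adjusted p of 0.0532 to 0.114.

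Macrophage markers summed to 12571 to 16496 CPM in early-stage and 15791 to 15909 in late-stage samples, C1qa rising and Mrc1 falling among 12, with C1qb at 0.34 and Apoe at −0.06 on the log2 scale and not called. NK cell markers fell in 5 of 7 genes (89.2 to 103 against 39.7 to 54.2 CPM, Gzma at −1.79 and Prf1 at −0.49), B cell markers rose in 3 of 7 (43.2 to 48.2 against 62.2 to 92.8 CPM, Cd79b at 0.87 and Cd79a at 0.82, the latter not called) and melanoma markers fell in 5 of 7 (1663 to 1807 against 767 to 1203 CPM, Tyrp1 at −0.85 and Dct at −0.63). Of 4 neutrophil markers tested S100a8 and S100a9 fell and Csf3r was at −0.14 on the log2 scale (73.8 to 87 against 64.4 to 79.4 CPM), of 6 endothelial markers Kdr fell and Pecam1 was at 0.06 (88.4 to 91.5 against 78.5 to 84 CPM), and neither basophil or mast cell marker tested was called. Retnlg and Ly6g were at 0 in early-stage and Ngp in late-stage samples. The part of these cells in the values of the dendritic cell markers was not tested.

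**Figure D5:**
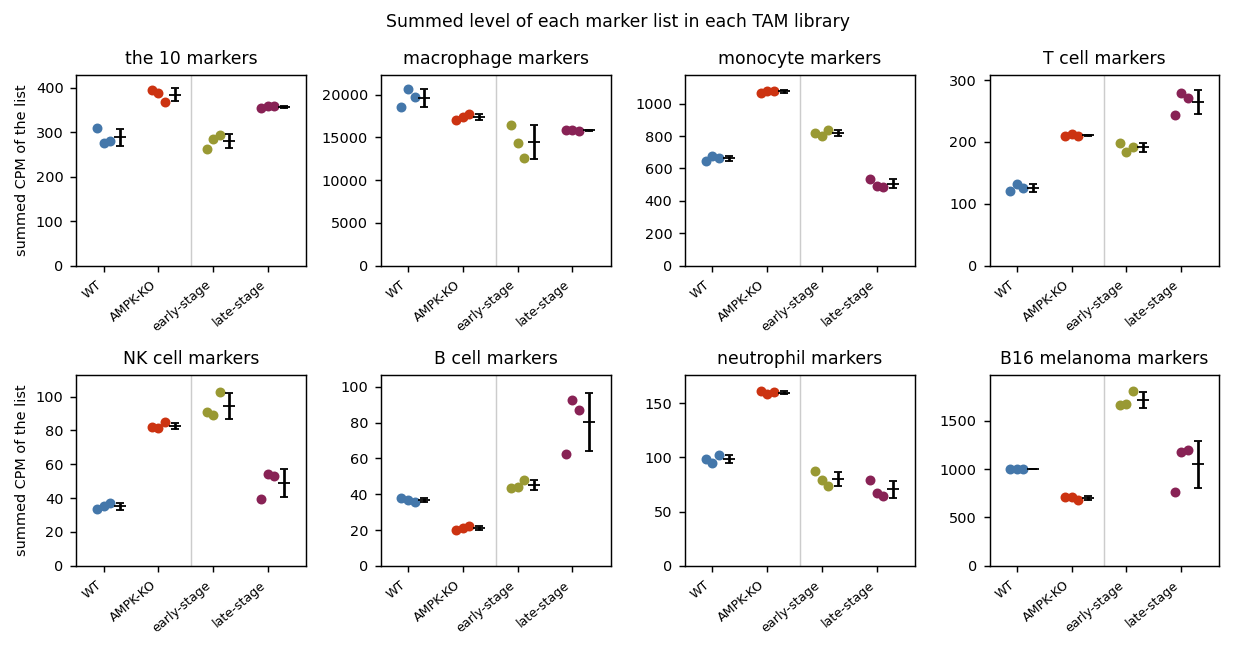
Summed CPM (y axis) of the 10 dendritic cell markers and of 7 marker lists of other cells in each TAM library, with 1 point a library and the mean and SD of each group beside the points (n = 3). The 10 markers summed to 275 to 310 CPM in WT, 367 to 395 in AMPK-KO, 262 to 294 in early-stage and 355 to 359 in late-stage samples, most of it from Wdfy4, while the monocyte sum was higher in AMPK-KO and lower in late-stage samples.

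Set side by side, Ccr7, Itgae and Wdfy4 were called higher in both comparisons, with log2 fold changes of 0.35, 0.36 and 0.23 in AMPK-KO and 0.38, 0.57 and 0.46 in late-stage TAMs. Cd209a was called in opposite directions (0.76 and −1.14). Clec9a, Xcr1, Flt3, Zbtb46 and Batf3 were called in AMPK-KO TAMs and not in late-stage TAMs. The comparisons came from separate tables with no sample in common, and the difference between them was not tested.

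Within groups, the markers did not follow each other closely, and a few pairs did. After each group was centred on its mean log2(CPM + 1), Zbtb46 and Wdfy4 had a Pearson r of 0.963 over 12 libraries and 0.946 over the 9 without the early-stage samples, which were the most spread. Wdfy4 also followed Adgre1 (0.931 and 0.861), the gene of F4/80, and Xcr1 followed Wdfy4 (0.889 and 0.838). Zbtb46 with Adgre1 gave 0.913 and 0.836. Others went opposite ways in both sets, among them Batf3 with Adgre1 (−0.822 and −0.792), Xcr1 with Irf8 (−0.764 and −0.770) and Xcr1 with Batf3 (−0.674 and −0.496). Clec9a and Xcr1 had an r of 0.487 and 0.521. Batf3 and Irf8 had 0.833 over all 12 libraries and 0.306 without the early-stage samples, so that relation rested on them. Most of the pairs named were picked by the size of r among all pairs of the markers, Cd8a, Adgre1 and Irf8. Some large values are expected from such a choice, and centring each group leaves fewer free values than libraries. The values of a pair come from the same libraries and share their scaling, and they are a description.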

How the data were processed

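TAMs from 12 samples in 4 groups of 3 were analysed. Reads were mapped with HISAT2 and assigned to genes with featureCounts, per the labels and the study's methods, and the authors deposited raw counts in 1 table per comparison. Tool versions, the strand setting and the handling of multiply mapped reads are not given in the sources used here. The submitters' processing notes name mm10 and GRCm38, the methods GRCh38, and 54349 of 55401 identifiers match GENCODE M21 (GRCm38) with their version.

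Each table was fitted on its own with edgeR 4.0.16 in R 4.3.3 (filterByExpr, TMM, glmQLFit, glmQLFTest, no covariates), with p-values adjusted by the Benjamini-Hochberg method over all genes tested. The fits were tested on simulated data. The 13 alternatives per comparison were RLE, upper-quartile and no scaling factors, DESeq2 1.42.0, at least 1 count in the table, at least 10 counts in every library, a block for the replicate number, and 6 fits that each left out a library. Named are the 10 markers, Prkaa1, Lyz2, up to 4 genes per other dendritic cell list with the smallest adjusted p, the 2 most abundant markers of each other cell type, and genes behind counts of 5 or fewer. Others, such as Adgre1 in the correlations and the ratio of Cd209a to Ccr2, were chosen after values were seen. Only the 10 markers, Prkaa1, Lyz2 and those up to 4 genes per list were followed in the alternatives. The markers and lists were chosen with earlier results of these data known. Prkaa1 counts cover the whole gene, so transcripts lacking a deleted exon still count.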

Additional observations from a re-analysis of the deposited data

How the results depend on the processing

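In AMPK-KO against WT TAMs, 9 of the 10 markers were called in the reported fit, 5 to 7 when a library was left out (5 without WT replicate 3), 7 with the replicate number as a block and 6 with every gene of at least 1 count. Over all genes tested, 3693 were called, 2414 to 4039 when a library was left out, 3862 with the block and 2965 with at least 1 count. Clec9a, Xcr1, Batf3, Cd209a and Ccr7 were called in all 13 alternatives, Zbtb46 in 12, Wdfy4 in 8, and Flt3 and Itgae in 5 each. In late-stage against early-stage TAMs, 4 markers were called, 1 to 6 when a library was left out (2 without early-stage replicate 2, 1 without late-stage replicate 2 or 3, and 6 without early-stage replicate 1), 5 with the block and 5 with DESeq2, beside 1619 over all genes, 653 to 2835 when a library was left out, 1417 with the block and 2414 with DESeq2. Cd209a was called in all 13, Wdfy4 and Ccr7 in 10 and Itgae in 9, while Batf3 was called in 3 and Zbtb46 in 1. Other dendritic cell genes called numbered 42 in AMPK-KO (32 to 41 when a library was left out, 42 with the block) and 21 in late-stage TAMs (7 to 25 when a library was left out, 18 with the block, 13 with at least 1 count). The late-stage count was 10 without early-stage replicate 2, 11 without late-stage replicate 1 or 2 and 7 without late-stage replicate 3. Samples with the same replicate number did not deviate together (correlations of −0.013, 0.00769 and −0.0014 in the first table and 0.0431, 0.0584 and −0.0231 in the second), so the numbers were not taken as pairs. Of the markers, the block took the call from Flt3 (adjusted p = 0.0517) and Itgae (0.0512) in AMPK-KO TAMs and gave it to Batf3 (0.0466) in late-stage TAMs. Lyz2, not called in AMPK-KO against WT (log2 fold change 0.07), lay at −0.08 to 0.28 when a library was left out, below 0 without WT replicate 1 (−0.02), WT replicate 3 (−0.03) or AMPK-KO replicate 3 (−0.08). Ly6d gave no value with at least 10 counts in every library. The cause of these shifts was not tested. Siglech had 17 to 60 counts a library and the largest SE of the 10 markers in both comparisons (0.52 and 0.59).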
